A study of Mus musculus with 55 samples.

Results

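Mural cells wrap the endothelium: pericytes sit on capillaries and smooth muscle cells on arteries and arterioles. The 10 genes described here are Notch3, Pdgfrb, Rgs5, Cspg4, Kcnj8, Abcc9, Myh11, Mylk, Cnn1 and Des. They were chosen as known pericyte and smooth muscle genes, with earlier results of these data known. Their symbols were matched to Ensembl gene identifiers. All 10 were present among the 56867 genes shared by the day 7 and day 28 count tables, and all 10 passed the filter on low counts at both days.

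The series measured RNA in left ventricular infarct tissue of C57BL/6J mice whose coronary artery had been tied off for good, so every group, the non-diabetic one included, had an infarct, and no uninjured heart was analysed here. By the sample titles, 8 libraries were non-diabetic, 8 type 1 and 8 type 2 at day 7, and 11, 10 and 10 at day 28. The series' design text names day 7 only. Library names carry "Ctrl" in the non-diabetic, "hi STZ" in the type 1 and "lo STZ HFFD" in the type 2 group, so what those treatments do apart from diabetes cannot be told apart from the type of diabetes. No label gives an age. The days were sequenced as separate projects, and in levels a day cannot be told apart from its project. No label says whether replicates are separate animals, so the p-values speak for the scatter among libraries, some of which may be technical.

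Library totals ran from 10.8 M to 51.2 M counts at day 7 and from 48.1 M to 92.9 M at day 28. The 10.8 M belonged to non-diabetic replicate 4, and the next lowest total at day 7 was 30.8 M. That shallow library had the highest Pdgfrb (9.06 log2 CPM) and Des (12.13) of its group. Several libraries stood apart from their groups in markers of other cells, and those named here are examples. Type 1 replicate 4 at day 7 had the lowest cardiomyocyte marker level of its group (mean log2 CPM 5.7, group median 8.42), and the mean of 5 adipocyte markers was 7.18 against a group median of −1.52. Type 2 replicate 4 at day 28 had a leukocyte marker level of 7.17 (group median 5.69) and a cardiomyocyte level of 8.56 (group median 10.48). At day 7 type 2 replicate 7 had a cardiomyocyte level of 7.12 (group median 9.03). Non-diabetic replicate 4 at day 7 had an adipocyte level of 3.64 (group median −1.06). At day 28 adipocyte and skeletal muscle levels ranged widely in every group, from −0.58 to 6.2 and from 1.01 to 7.73 in non-diabetic tissue. Without type 1 replicate 4 the members called in the day 7 comparisons described below were 5, 3 and 3 in place of 5, 2 and 2, in the order type 1 and type 2 against non-diabetic tissue and type 1 against type 2. Calls over all genes in that fit are not given here, so whether all genes shifted likewise is not shown.

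Mural cells stabilise new vessels after infarction. Endothelial cells release platelet-derived growth factor that binds the receptor encoded by Pdgfrb and recruits pericytes, and they present Jagged and Delta ligands to the receptor encoded by Notch3, whose cleaved part joins the DNA-binding protein Rbpj to switch on Hes and Hey repressors. Smooth muscle cells contract through the myosin encoded by Myh11, which is switched on by the kinase encoded by Mylk. Several of the genes are shared with other cells of the heart: cardiomyocytes make desmin, the product of Des, and Abcc9, while activated fibroblasts make Pdgfrb. In bulk tissue, fewer cells of a type and less RNA per cell cannot be told apart.

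The start regions of Notch3 and of Hey2, a Notch target described with it below, are shown because Notch3 had the largest change of the 10 genes at day 7 and Hey2 was the 1 pathway gene with a match to the motif searched. Both come from RefSeq (GRCm38.p6), run 5′ to 3′ on the gene's strand from 250 bases before the start site to 10 after it, and lie on the minus strand at chr17:32166881-32167140 and chr10:30842774-30843033. Capitals mark the 10 transcribed bases in Notch3 and each match to GTGGGAA or its reverse complement TTCCCAC, the letters that Rbpj is known to bind, in Hey2.
Notch3: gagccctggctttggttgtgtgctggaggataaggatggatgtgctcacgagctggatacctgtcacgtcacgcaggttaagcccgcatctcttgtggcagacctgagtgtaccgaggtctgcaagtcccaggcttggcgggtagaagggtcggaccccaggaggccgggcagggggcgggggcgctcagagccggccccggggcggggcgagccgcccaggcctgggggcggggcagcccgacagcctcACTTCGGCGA
Hey2: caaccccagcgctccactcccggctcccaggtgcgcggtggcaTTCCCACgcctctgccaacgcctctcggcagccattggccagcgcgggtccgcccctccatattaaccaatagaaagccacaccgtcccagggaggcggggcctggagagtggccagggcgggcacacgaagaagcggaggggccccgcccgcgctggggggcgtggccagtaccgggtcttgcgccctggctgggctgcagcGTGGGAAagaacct
Notch3 held no match in this window, and Hey2 held matches that begin 207 and 4 bases before the start site, the latter running across it. These letters were present in 5.58% of 32851 windows of this length, in 0 of the 8 member genes with a window and in 1 of the 11 other Notch pathway genes with one. The CArG box, the serum response factor motif of smooth muscle genes, was in 0 of those 8 windows and in 1.5% of all, searched on both strands. Pdgfrb and Myh11 had no window. With motifs this rare, 8 windows are too few for 0 matches to mean a lack of the motif in the members. A match is a description and not a site.

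Per length of exon, Des had the highest level in every group, followed by Rgs5 and Pdgfrb. In non-diabetic tissue at day 7 the medians were 870 CPM per kb for Des, 126 for Rgs5 and 83.1 for Pdgfrb, then 24.8 for Cnn1 and 19.3 for Notch3. The remaining 5 genes lay between 7.72 (Kcnj8) and 11.1 (Myh11), and the libraries of neighbours in that order overlapped. At day 28 the non-diabetic medians were 766 for Des, 112 for Rgs5 and 40.4 for Pdgfrb, and Cnn1 came last at 3.05. Des lay apart from Rgs5 in every library of every group, and the libraries of Rgs5 and Pdgfrb overlapped in 3 of the 6 groups.

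**Figure D1:**
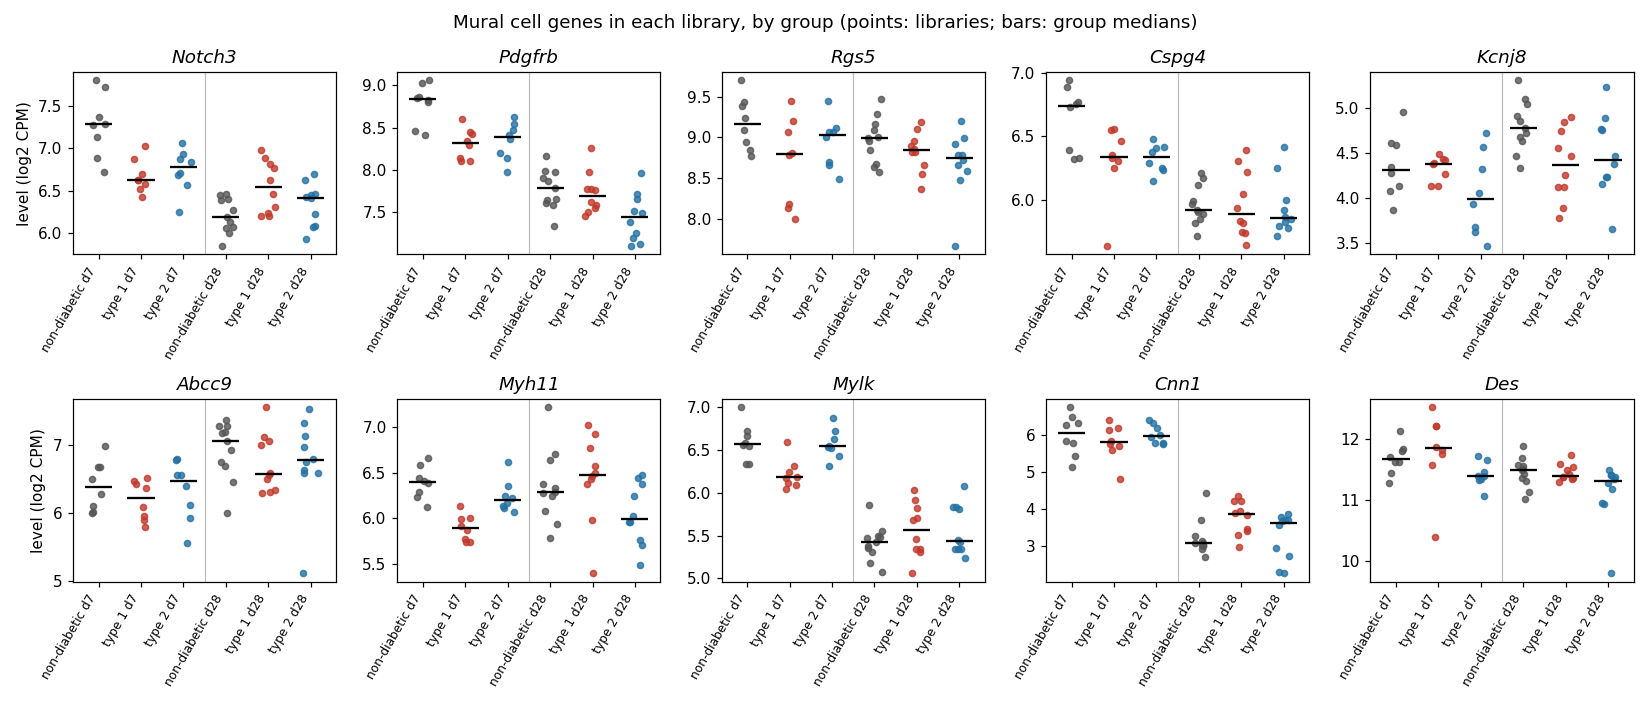
Level of each of the 10 mural cell genes (vertical axis, log2 CPM) in each library (points), by group, with the group median as a bar; type 1 libraries are red, type 2 blue and non-diabetic grey. At day 7 the type 1 points for Notch3, Pdgfrb, Myh11 and Mylk sit mostly below the non-diabetic ones, while the groups mix more in Kcnj8, Cnn1 and Abcc9.

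In the early infarct, at day 7, type 1 diabetic tissue was first set against non-diabetic tissue. Of the 10 mural genes 5 were lower and 0 higher, beside 11.4% of all 18165 genes tested that were called lower and 22.5% called in either direction. The median log2 change of the 10 was −0.35, and that of all genes −0.01. Called genes were the receptors Notch3 and Pdgfrb, the surface proteoglycan gene Cspg4, and the contractile genes Myh11 and Mylk. A call here means an adjusted p at or under 0.05 by the quasi-likelihood test of edgeR, adjusted over all genes tested by the Benjamini-Hochberg method.

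Notch3, the mural Notch receptor, had a lowest, median and highest level of 6.72, 7.29 and 7.81 log2 CPM in the 8 non-diabetic libraries and of 6.42, 6.62 and 7.03 in the 8 type 1 libraries. All 8 type 1 libraries lay under the non-diabetic mean and 6 under every non-diabetic library. The log2 change was −0.64 (SE 0.134, adjusted p = 0.00187), so that the level fell by 35.7%. Pdgfrb, the platelet-derived growth factor receptor, ran from 8.41 over 8.83 to 9.06 in non-diabetic and from 8.1 over 8.32 to 8.6 in type 1 tissue. Its change was −0.49 (SE 0.104, adjusted p = 0.00203), and 5 type 1 libraries lay under every non-diabetic one. Cspg4, which encodes a proteoglycan on pericyte surfaces, had medians of 6.74 and 6.34 and a change of −0.33 (SE 0.108, adjusted p = 0.0287). The Cspg4 call was the weakest: type 1 replicate 4 was far below its group at 5.64, the change was −0.25 without it (adjusted p = 0.0483), and the call was lost when any 1 of 6 others was left out (non-diabetic replicates 1, 2, 3, 4 and 6 and type 1 replicate 5), at values from −0.31 to −0.28.

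Of the 10 genes, Myh11 had the largest change relative to its SE. Myh11, the smooth muscle myosin heavy chain, ran from 6.12 over 6.4 to 6.66 in non-diabetic and from 5.74 over 5.9 to 6.14 in type 1 tissue, so that 7 of 8 type 1 libraries lay under every non-diabetic library. Its change was −0.50 (SE 0.0823, adjusted p = 0.000309). Mylk, the kinase of the myosin light chain, ran from 6.34 over 6.57 to 7.0 and from 6.05 over 6.18 to 6.59, with 7 of 8 type 1 libraries under every non-diabetic library, and changed by −0.38 (SE 0.0925, adjusted p = 0.00531). Cnn1, which encodes the actin-binding calponin, was at −0.22 (SE 0.203, adjusted p = 0.453), and its groups overlapped over most of their range.

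Genes of ion channels and signal damping did not pass. Rgs5, which shortens G protein signals in pericytes, had medians of 9.16 and 8.8 and a change of −0.42 (SE 0.188, adjusted p = 0.113); without type 1 replicate 3 it was called, at −0.54 (adjusted p = 0.0302). Abcc9, the regulatory subunit of the vascular ATP-sensitive potassium channel, was at −0.23 (SE 0.168, adjusted p = 0.347). Kcnj8, the pore of that channel, had medians of 4.3 and 4.38 and moved by less than its SE. Des was at 0.20 (SE 0.185, adjusted p = 0.458) and ran from 10.38 to 12.52 in type 1 tissue, where replicate 4 was the lowest.

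**Figure D2:**
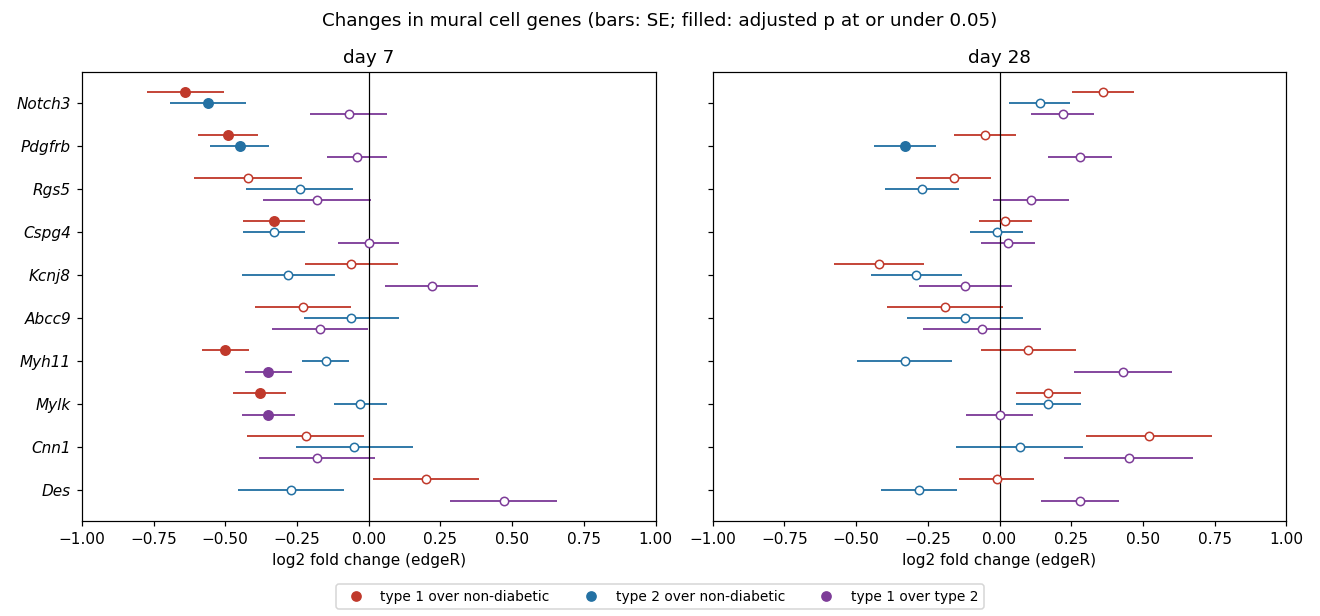
Log2 fold change (horizontal axis) of each mural cell gene at day 7 and day 28, with type 1 over non-diabetic in red, type 2 over non-diabetic in blue and type 1 over type 2 in purple; bars are the SE and filled points passed at an adjusted p of 0.05. Filled points stand at day 7 for Notch3, Pdgfrb, Cspg4, Myh11 and Mylk, and at day 28 for Pdgfrb in type 2 tissue alone.

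Related lists, chosen with earlier results of these data known, were counted in the same test. Of 13 other pericyte markers 5 fell and 0 rose (median −0.32), with the nitric oxide receptor subunits Gucy1a1 (−1.28, adjusted p = 0.00123) and Gucy1b1 (−0.66) and the endothelin receptor Ednra (−0.50). Of 18 other smooth muscle contractile genes 4 fell and 0 rose (median −0.25), led by Smtn, which encodes smoothelin (−0.49, adjusted p = 0.000167), the integrin Itga8 (−0.68) and the actin nucleator Lmod1 (−0.61). Of the transcription regulators of smooth muscle 0 of 7 passed. Among relatives of the members, the channel subunit Abcc8 (−1.33, adjusted p = 0.0387), the signal dampers Rgs4 (−0.59) and Rgs3 (−0.34) and the kinases Mylk2 (−0.87) and Mylk4 (−2.05) fell, and 0 of 5 genes of PDGF ligands and the sister receptor were called. The calls of Mylk2, Abcc8, Mylk4 and Rgs3 were lost when any 1 of 17, 8, 5 and 4 libraries was left out. Type 1 replicate 4, lowest in cardiomyocyte markers, was also lowest in the mean of the channel relatives (−0.15 log2 CPM, group median 2.95). Which cells the fall of the relatives came from was not tested.

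Of 14 Notch ligands, other receptors, cofactors and targets 6 fell and 1 rose (median −0.21). Hey1, a target repressor, fell by 0.75 (SE 0.144, adjusted p = 0.000944), the target Hes1 by 0.56 (SE 0.13, adjusted p = 0.00364) and the ligand Jag2 by 0.61 (SE 0.143, adjusted p = 0.00378). Heyl, a target known from mural cells, was at −0.67 and Hey2 at −0.57, which together with the ligand Dll1 make up the 6. The gene that rose was Rbpj, the DNA-binding partner of the cleaved receptor, at 0.37 (SE 0.0834, adjusted p = 0.00323). The receptors Notch1, Notch2 and Notch4 were not called.

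**Figure D3:**
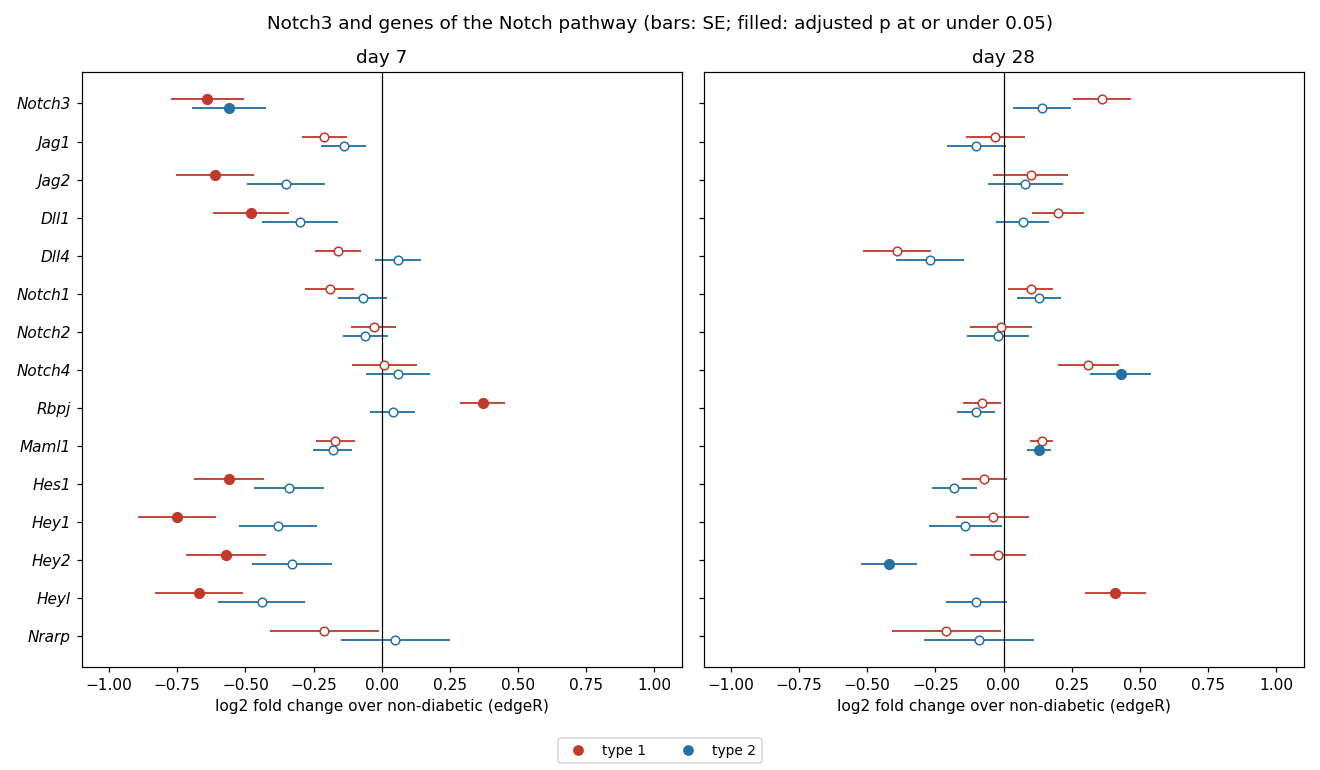
Log2 fold change over non-diabetic tissue (horizontal axis) of Notch3 and the 14 other Notch pathway genes at day 7 and day 28, type 1 in red and type 2 in blue; bars are the SE and filled points passed at an adjusted p of 0.05. At day 7 Hey1 (−0.75), Heyl (−0.67), Jag2 and the other red filled points lie left of 0 apart from Rbpj, and at day 28 Heyl (0.41) lies on the other side.

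Markers of other cells moved with the same groups at day 7. The mean level of 8 leukocyte markers had a median of 6.82 log2 CPM without diabetes, against 7.2 (type 1) and 7.31 (type 2), and 5 of 8 markers rose in each diabetic group. Fibroblast markers had medians of 9.47, 8.75 and 9.06, all libraries of both diabetic groups lay below every non-diabetic library, and 9 of 12 markers fell in type 1 tissue. Of the myofibroblast markers 6 of 10 fell in type 1 tissue (median log2 change −0.42) and 0 of 10 in type 2 (−0.33). Endothelial markers had medians of 6.8, 6.83 and 6.86, with 1 of 14 lower in type 1 tissue. Cardiomyocyte markers had medians of 8.96, 8.42 and 9.03, with 3 of 20 lower in type 1 tissue (median log2 change −0.77). The part of the fibroblast and myofibroblast markers in the mural result was not tested. With the leukocyte mean as a covariate, 0 of 10 mural genes were called in type 1 tissue, at −0.47 for Notch3 (adjusted p = 0.166), −0.37 for Pdgfrb (0.167), −0.39 for Myh11 (0.076) and −0.40 for Mylk (0.107), and the calls over all genes dropped from 4087 to 197. Each gene named above from the other lists lost its call in that fit as well. With the endothelial mean as a covariate the same count was 5, and with the cardiomyocyte mean it was 5, with Des at 0.46 (adjusted p = 0.021) in place of Cspg4 at −0.24 (0.143). Leukocyte means reached 7.04 in non-diabetic libraries and began at 6.95 in type 1 libraries, so that covariate was largely tied to group. The part of leukocytes in the mural changes was not tested.

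**Figure D4:**
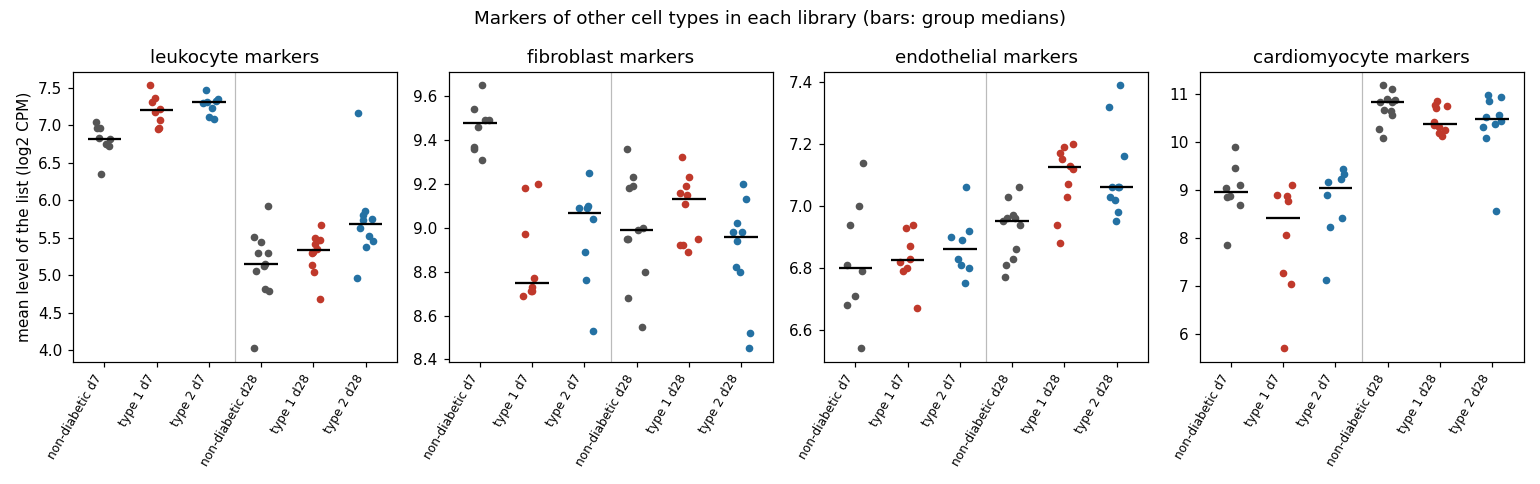
Mean level of the leukocyte, fibroblast, endothelial and cardiomyocyte marker lists (vertical axis, log2 CPM) in each library (points) by group, with group medians as bars. At day 7 leukocyte markers sit higher and fibroblast markers lower in both diabetic groups than in non-diabetic tissue, and endothelial medians lie between 6.8 and 6.86.

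Type 2 diabetic tissue was then set against the same day 7 controls. Notch3 and Pdgfrb were lower, 2 of the 10 genes, beside 3.5% of all genes called lower and 7.35% called in either direction. The median of the 10 was −0.25 and that of all genes −0.03. Both comparisons at day 7 share the 8 non-diabetic libraries, so their values are given side by side and not as 2 independent results.

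Notch3 ran from 6.24 over 6.77 to 7.06 log2 CPM in type 2 tissue, and 4 of its 8 libraries lay under every non-diabetic one. Its change was −0.56 (SE 0.134, adjusted p = 0.012), against −0.64 in type 1 tissue. Pdgfrb ran from 7.98 over 8.39 to 8.63 and was at −0.45 (SE 0.104, adjusted p = 0.0105), against −0.49 in type 1. Cspg4 was at −0.33 with an adjusted p of 0.0622, and it passed without type 1 replicate 4, which shares the estimate of spread (−0.32, adjusted p = 0.0251). The contractile genes stayed near the non-diabetic level: Myh11 had a median of 6.2 and a change of −0.15 (SE 0.082, adjusted p = 0.282), and Mylk and Cnn1 moved by less than their SE. Rgs5 (−0.24, adjusted p = 0.489), Kcnj8 (−0.28, adjusted p = 0.314) and Des (−0.27, adjusted p = 0.406) did not pass, and Abcc9 moved by less than its SE.

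Of the other pericyte markers 1 rose, P2ry14, a receptor of nucleotide sugars (0.58, adjusted p = 0.00458), and of the smooth muscle genes 1 fell, Smtn (−0.27, adjusted p = 0.0224, lost when any 1 of 3 libraries was left out). Rgs2, a relative of Rgs5, rose by 0.36 (adjusted p = 0.0455), a call lost when any 1 of 10 libraries was left out. None of the 14 Notch pathway genes was called by edgeR, where Heyl was at −0.44 (adjusted p = 0.0898) and Hey1 at −0.38 (adjusted p = 0.102). With the leukocyte mean as a covariate, 0 of 10 mural genes were called, with Notch3 at −0.36 (adjusted p = 0.379) and Pdgfrb at −0.31 (0.339). Every type 2 library lay above every non-diabetic library in that mean, from 7.09 against 7.04. After summing, within each group, the libraries whose names begin with 1 number, Notch3 was at −0.55 (adjusted p = 0.171) and Pdgfrb at −0.48 (0.134).

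When the diabetic groups were set against each other at day 7, Myh11 and Mylk were lower in type 1 than in type 2 tissue, 2 of 10 genes, beside 1.19% of all genes called lower and 2.71% in either direction. Myh11 was at −0.35 (SE 0.0821, adjusted p = 0.0253) and Mylk at −0.35 (SE 0.0924, adjusted p = 0.04), and for each gene 7 of 8 type 1 libraries lay under every type 2 library. Type 1 replicate 3, which had the highest level of both genes in its group, was the exception. The Myh11 call was lost when type 1 replicate 6, 7 or 8 or type 2 replicate 2 was left out, at −0.35 to −0.32, and the Mylk call when any 1 of 10 libraries was, at −0.36 to −0.31. With summed libraries neither passed (Myh11 −0.32, adjusted p = 0.288, and Mylk −0.30, adjusted p = 0.388, with 0 of all genes called), and with the replicate number as a block Mylk did not (−0.35, adjusted p = 0.0674).

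No difference of the receptors between the diabetic groups was detected. The 95% interval of the difference (normal approximation) ran from −0.33 to 0.19 for Notch3 and from −0.24 to 0.16 for Pdgfrb. Des was higher in type 1 tissue by 0.47 (SE 0.185, adjusted p = 0.159), which did not pass, and without type 1 replicate 4 it was at 0.60 (adjusted p = 0.0141). Itga8 (−0.60, adjusted p = 0.0136) was lower and Rbpj (0.33, adjusted p = 0.0342) higher in type 1 than in type 2 tissue, and the Rbpj call was lost when any 1 of 9 libraries was left out.

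At day 28 none of the 10 genes was called in type 1 against non-diabetic tissue by edgeR, beside 4.02% of all genes called in either direction. At an unadjusted p under 0.05 there were 3 of 10 members and 19.6% of all genes. DESeq2 called 1 of the 10 and 1219 of all 18901 genes, and limma-voom 3 and 3025. The gene nearest the threshold was Notch3, which ran from 5.84 over 6.19 to 6.46 log2 CPM in the 11 non-diabetic libraries and from 6.2 over 6.54 to 6.98 in the 10 type 1 libraries. The level was higher in type 1 tissue, by 0.36 (SE 0.107, adjusted p = 0.051), with 6 of 10 libraries above every non-diabetic library. It passed when any 1 of 10 libraries was left out and with DESeq2 (0.35, adjusted p = 0.0257).

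Cnn1 and Kcnj8 were the other genes under that unadjusted p. Cnn1 had medians of 3.07 and 3.86 and a change of 0.52 (SE 0.22, adjusted p = 0.176). Non-diabetic replicate 3 was the highest of its group in Cnn1, at 4.44, and also in Myh11, Mylk, Notch3 and Pdgfrb, and without it Cnn1 was at 0.71 (adjusted p = 0.0329). Kcnj8 had medians of 4.78 and 4.36 and a change of −0.42 (SE 0.158, adjusted p = 0.132). In the other lists Mcam, a pericyte adhesion molecule (0.25, adjusted p = 0.0374), the contractile genes Pdlim3 (0.51, adjusted p = 0.023) and Myl9 (0.48, adjusted p = 0.0431), the Notch target Heyl (0.41, adjusted p = 0.0328), Klf4, a brake on smooth muscle genes (0.34, adjusted p = 0.0144), and Rgs2 (0.31, adjusted p = 0.0166) rose. None of these lists had a fall in edgeR's test, while 3 of 10 myofibroblast and 2 of 14 endothelial markers rose. The calls of Mcam, Myl9 and Heyl were lost when any 1 of 11, 16 and 7 libraries was left out, and that of Pdlim3 without type 1 replicate 3 (0.43).

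In type 2 tissue at day 28, Pdgfrb was lower than in non-diabetic tissue, 1 of 10 genes, beside 3.5% of all genes called lower and 10.7% in either direction. It ran from 7.34 over 7.79 to 8.16 log2 CPM in non-diabetic and from 7.1 over 7.44 to 7.96 in type 2 tissue, and the groups overlapped, with 4 of 10 type 2 libraries under every non-diabetic one. The change was −0.33 (SE 0.108, adjusted p = 0.0484). The call sat at the threshold: it was lost when any 1 of 21 libraries was left out, with values from −0.34 to −0.28, and without type 2 replicate 4 it was at −0.35 (adjusted p = 0.0389). Myh11 was at −0.33 (SE 0.166, adjusted p = 0.217), Des at −0.28 (adjusted p = 0.171), Rgs5 at −0.27 (adjusted p = 0.189) and Kcnj8 at −0.29 (adjusted p = 0.248). Replicate 4 was the lowest type 2 library in Rgs5, Kcnj8, Abcc9 and Des and the highest in Mylk.

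Of the 5 genes of PDGF ligands and the sister receptor 2 rose: Pdgfd, a ligand of the receptor encoded by Pdgfrb, by 0.27 (adjusted p = 0.0226), and Pdgfc, which binds mainly the sister receptor, by 0.47 (adjusted p = 0.0125). P2ry14 rose by 0.40 (adjusted p = 0.0241), the 1 of 13 pericyte markers called. The P2ry14 call was lost without type 2 replicate 8 (0.35) and the Pdgfd call without type 2 replicate 10 (0.24). Mrtfa, a coactivator of contractile genes, rose by 0.48 (adjusted p = 0.00408) and Rgs2 by 0.39 (adjusted p = 0.000911), and Ppp1r12b, a myosin phosphatase subunit, fell by 0.53 (adjusted p = 0.00569). In the Notch list Notch4, an endothelial receptor (0.43, adjusted p = 0.0122), and Maml1 (0.13, adjusted p = 0.0395, lost when any 1 of 11 libraries was left out) rose, and Hey2 fell by 0.42 (adjusted p = 0.00695). Endothelial markers rose in 5 of 14 and leukocyte markers in 4 of 8, and fibroblast markers fell in 3 of 12. With the leukocyte mean as a covariate Pdgfrb was at −0.46 (adjusted p = 0.00908), with the endothelial mean at −0.33 (0.146), while Pdgfc was at 0.29 (0.167), Pdgfd at 0.13 (0.31) and Mrtfa at 0.20 (0.108) with the leukocyte mean.

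Between type 1 and type 2 tissue at day 28 none of the 10 genes was called by edgeR, DESeq2 or limma-voom, beside 3.21% of all genes called by edgeR in either direction, and 3 of 10 had an unadjusted p under 0.05 in edgeR, as did 16.8% of all genes. These were Myh11, at 0.43 (SE 0.17, adjusted p = 0.173), Pdgfrb, at 0.28 (SE 0.111, adjusted p = 0.172), and Des, at 0.28 (SE 0.135, adjusted p = 0.292), each higher in type 1 tissue. Medians of Myh11 were 6.47 and 5.99 log2 CPM, and 5 of 10 type 1 libraries lay above every type 2 library. Heyl (0.51, adjusted p = 0.00893), Hey2 (0.41, adjusted p = 0.0267) and Gucy1b1 (0.43, adjusted p = 0.0282) were higher in type 1 than in type 2 tissue. The Gucy1b1 call was lost when any 1 of 5 libraries was left out and the Hey2 call when any 1 of 3 was.

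A fit of all 6 groups tested whether the diabetic effect itself differed between days. For type 1 diabetes 3 of the 10 genes had a higher effect at day 28 than at day 7, beside 6.98% of all 20421 genes tested in that direction and 12.5% in either. Notch3 differed by 0.98 (SE 0.173, adjusted p = 0.000104), between −0.64 at day 7 and 0.36 at day 28. Mylk differed by 0.53 (SE 0.153, adjusted p = 0.0154) and Myh11 by 0.58 (SE 0.204, adjusted p = 0.0497). The Myh11 call was lost when any 1 of 40 of the 55 libraries was left out, type 1 replicate 4 at day 7 among them, and the Notch3 and Mylk calls were kept whichever library was left out. With summed libraries Notch3 passed (0.98, adjusted p = 0.0221) and Mylk (0.47, adjusted p = 0.128) and Myh11 (0.55, adjusted p = 0.0832) did not, and Myh11 did not pass with the block, the endothelial mean or no filter either. Cnn1 (0.73, adjusted p = 0.118) and Pdgfrb (0.42, adjusted p = 0.0579) did not pass.

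Other Notch and contractile genes passed the same test. In the Notch list 7 of 14 had a higher effect at day 28 and 1 a lower one, with Heyl at 1.06 (adjusted p = 0.000219), Dll1 at 0.68 (adjusted p = 0.00403), Maml1 at 0.29 (adjusted p = 0.00703) and Rbpj at −0.46 (adjusted p = 0.00272). Of the 18 smooth muscle genes 4 were higher, with Lmod1 at 1.1 and Itga8 at 1.13, and of the 13 pericyte markers 3 were higher, with Gucy1a1 at 1.33, Gucy1b1 at 0.87 and Ednra at 0.59. Pdgfd (0.48, adjusted p = 0.0156), Mylk2 (1.80, adjusted p = 0.0367) and Rgs4 (0.50, adjusted p = 0.0437) were higher too, though the Mylk2 call was lost when any 1 of 10 libraries was left out and the Rgs4 call when any 1 of 19 was. Fibroblast markers were higher in 7 of 12 and myofibroblast markers in 6 of 10, and their part in the mural result was not tested. For type 2 diabetes only Notch3 among the 10 was called, at 0.67 (SE 0.172, adjusted p = 0.0327), beside 1.08% of all genes in that direction and 1.51% in either, and it was lost when any 1 of 6 libraries was left out (non-diabetic replicates 4 and 5 and type 2 replicates 1, 3 and 5 at day 7 and type 2 replicate 3 at day 28), at 0.59 to 0.66. It did not pass with limma-voom (0.50, adjusted p = 0.0684), the block (0.66, 0.0689), the endothelial mean (0.61, 0.0565), no filter (0.67, 0.0528) or summed libraries (0.70, 0.377). Of the 14 Notch pathway genes Maml1 was called (0.28, adjusted p = 0.0377), a call lost when any 1 of 14 libraries was left out. Type 2 and type 1 share the non-diabetic libraries of both days.

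The members split by how they varied between libraries of the same group. After group means were subtracted, Rgs5 and Abcc9 moved together at day 7 (Pearson r 0.82 over 24 libraries) and day 28 (0.91 over 31), and Kcnj8 joined them at day 28 (0.85 with Abcc9). Myh11 moved with Mylk (0.66 and 0.86) and at day 28 with Cnn1 (0.82), and Notch3 moved with Pdgfrb (0.77 and 0.79). Abcc9 and Cnn1 ran opposite at day 28 (−0.72). These values describe libraries that also share depth and tissue makeup, and no p is given for them.

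Rgs5, Abcc9 and Des went with the cardiomyocyte markers of each library at both days, and Kcnj8 at day 28 (r 0.36 at day 7). With the myofibroblast markers, r at day 28 was 0.77 for Cnn1, 0.68 for Mylk, 0.60 for Myh11, −0.58 for Rgs5 and −0.65 for Abcc9. At day 7 these values were 0.69, 0.54, 0.20, 0.06 and −0.31. With the fibroblast markers Pdgfrb had r of 0.56 and 0.65 at days 7 and 28. No p is given for the myofibroblast and fibroblast lists, and which cells underlie the split was not tested. Over the 24 day 7 libraries, deviations from the group means of Rgs5 had a Pearson r of 0.84 and a Spearman rho of 0.83 with the cardiomyocyte mean (permutation adjusted p = 5.7e-05 each, 100000 resamples within groups, 40 relations). Without the 2 libraries farthest in the cardiomyocyte mean r was 0.81. For Abcc9 the values were 0.82, 0.79 and 0.80, with the same adjusted p. At day 28, over 31 libraries, r was 0.95 for Abcc9, 0.90 for Rgs5 and 0.79 for Kcnj8, with rho of 0.95, 0.89 and 0.81 and r of 0.92, 0.85 and 0.78 without the 2 farthest libraries (permutation adjusted p = 5.7e-05 for each). A raw p of 1e-05 lies behind each of these and is the smallest that the resamples can give. Des, made by cardiomyocytes too, had r of 0.77 and 0.84 at days 7 and 28, which dropped to 0.57 at both days without the 2 farthest libraries (permutation adjusted p = 0.0005 and 0.00036), with rho of 0.66 and 0.62 (permutation adjusted p = 0.0035 and 0.0015).

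The contractile genes and receptors did not share that relation. At day 28 Cnn1 ran against the cardiomyocyte mean (r −0.66, rho −0.78, r −0.73 without the 2 farthest, permutation adjusted p = 5.7e-05), and so did Mylk (r −0.63, rho −0.62, −0.51 without the 2 farthest, permutation adjusted p = 0.00031 for r and 0.0013 for rho). Myh11 had r of −0.49 and rho of −0.57 (permutation adjusted p = 0.0023 and 0.0026), and Pdgfrb −0.47 and −0.53 (0.025 and 0.0064), with r of −0.43 and −0.46 without the 2 farthest. Notch3 had r of −0.39 and rho of −0.4 at day 28 (permutation adjusted p = 0.05 and 0.056), with r of −0.29 without the 2 farthest. At day 7 Notch3 (r 0.14), Pdgfrb (−0.08), Myh11 (−0.11) and Mylk (−0.40) had permutation adjusted p of 0.56, 0.7, 0.69 and 0.092, with rho of 0.27, −0.12, 0.06 and −0.38 (0.27, 0.64, 0.8 and 0.11). With the leukocyte mean Rgs5 had r of −0.72 at day 7 and −0.78 at day 28, with rho of −0.73 at both, r of −0.64 and −0.67 without the 2 farthest, and permutation adjusted p of 0.00054 and 0.0001 for r and 0.0013 and 0.0001 for rho. Abcc9 had r of −0.67 and −0.79 and rho of −0.65 and −0.74 (permutation adjusted p = 0.00054 and 5.7e-05 for r, 0.0026 and 5.7e-05 for rho), with r of −0.57 and −0.68 without the 2 farthest. Des had r of −0.52 and −0.79 and rho of −0.41 and −0.64 (0.029 and 0.00036 for r, 0.1 and 0.0013 for rho), with r of −0.41 and −0.66. At day 28 Kcnj8 ran against the leukocyte mean (r −0.60, rho −0.58, r −0.51 without the 2 farthest, permutation adjusted p = 0.0012 and 0.0022). Cnn1 (r 0.48, rho 0.54), Mylk (0.46, 0.49) and Pdgfrb (0.44, 0.49) ran with it at day 28, with r of 0.51, 0.42 and 0.43 without the 2 farthest and permutation adjusted p of 0.026, 0.017 and 0.037 for r and 0.0048, 0.01 and 0.014 for rho.

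**Figure D5:**
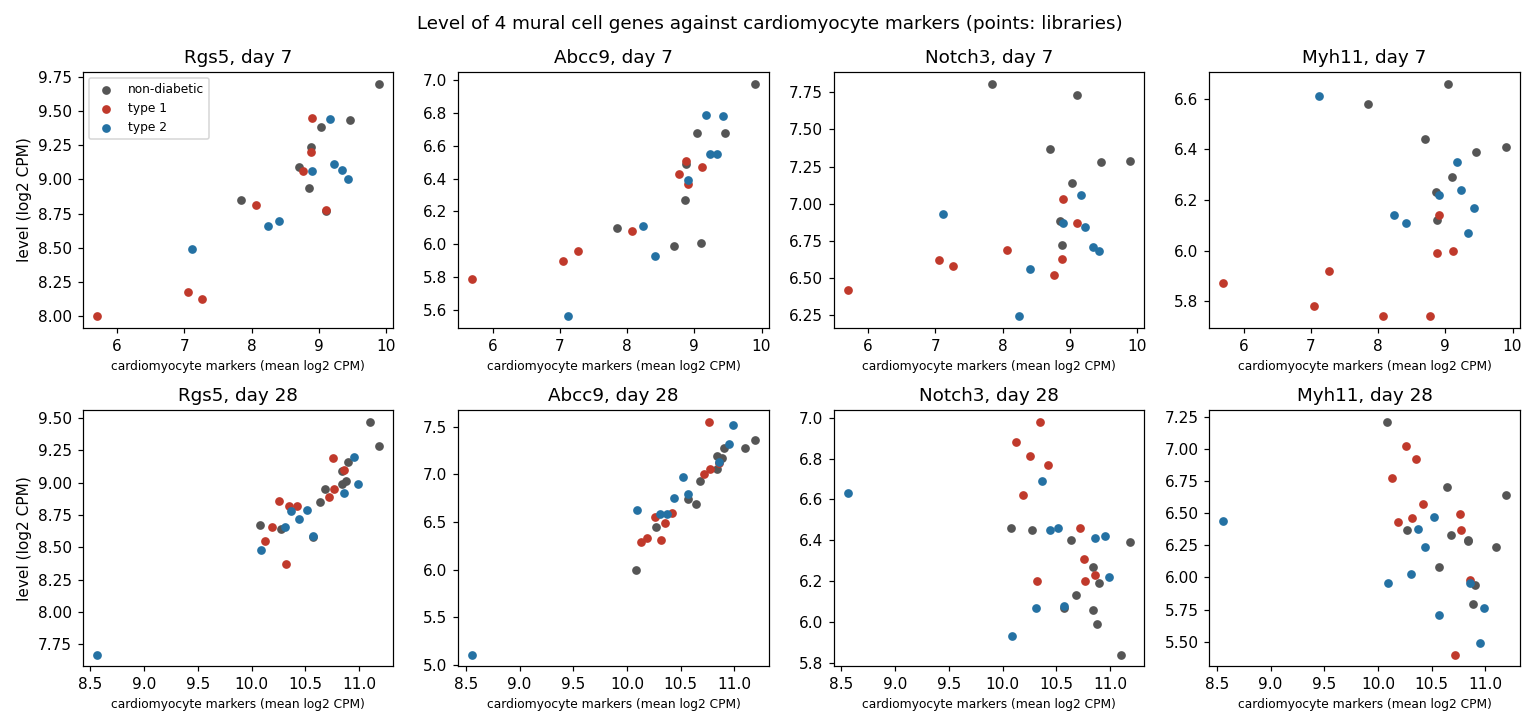
Level of Rgs5, Abcc9, Notch3 and Myh11 (vertical axes, log2 CPM) against the mean of 20 cardiomyocyte markers (horizontal axis, log2 CPM) in each library, day 7 above and day 28 below. Rgs5 and Abcc9 rise along the axis in all 3 groups (within-group r 0.84 and 0.82 at day 7, 0.90 and 0.95 at day 28), and Notch3 and Myh11 do not.

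The 5 genes most like each of 3 members in this within-group variation are given as a description. For Rgs5, over 13000 genes at day 7, the nearest were Sspn (r 0.91), which encodes the muscle membrane protein sarcospan, Gm47644, Osbp, Rragd and Efcab2, and at day 28, over 12666 genes, mt-Nd5 (0.94), Klhl23, Stau2, Homer2 and Atp5k, with subunits of mitochondrial respiration among them. For Myh11 the smooth muscle gene Lmod1 came first at day 7 (0.65) and second at day 28 (0.84), and the others were Fbxl18, Slc6a9, Gna11 and Clip3 at day 7 and Susd5 (0.88), Acan, Arhgef2 and Emp2 at day 28. For Notch3 the nearest were Lrp5 (0.89), Susd2, Prrc2b, Npr2 and Iqsec2 at day 7.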

How the data were processed

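RNA of infarct tissue was extracted with a column kit and its libraries were prepared by a stranded poly(A) method, according to protocols in the labels. The authors deposited raw counts per Ensembl gene, 1 table for each day, and every column matched 1 sample. The submitters' processing notes name mm39 as the build and DESeq2 as a tool. The sources used here give no aligner, counting tool, annotation or strand setting. Antisense genes overlap at most 6.0% of the exon bases of a member (Notch3, by Gm17276, whose counts were 1.21% of its own), and such reads cannot be told apart without a strand setting. Of counts between 1 and 49, 76.4% were even at day 7 and 75.2% at day 28, so counting error may exceed what the totals imply. No libraries of a group agreed within sampling noise (lowest chi-square per gene 17.6 and 25).

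Symbols came from a table of Ensembl identifiers supplied with the reference, which matched 51948 of 56941 identifiers at day 7 and 51880 of 57186 at day 28. Exon lengths came from GENCODE M21 (GRCm38), a build other than that of the counts. Counts were tested in R 4.3.3 with edgeR 4.0.16 (TMM, filterByExpr with minimum count 10 and total 15, glmQLFit, glmQLFTest), the groups of a day together, and all 6 groups for differences between days. SE is the log2 change over the square root of F. Levels are log2 CPM with a prior count of 2, and levels between genes are CPM per kb of exon. The script was tested on simulated data. Members and lists were chosen with earlier results of these data known. Other lists name up to 3 called genes per direction with the smallest p, and, after their values were seen, Heyl, Hey2 and Dll1 at day 7. Genes of like pattern are the 5 with the highest r among those whose log2 CPM averaged 1 or more; those of Notch3 at day 28 are not reported here. Other settings tried were limma-voom (limma 3.58.1, quality weights), DESeq2 1.42.0, RLE scaling, no filter, only the groups compared, the replicate number as a block, marker means as covariates, each library left out, and sums of libraries by the first number of their name, whose meaning no label gives.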

Additional observations from a re-analysis of the deposited data

Results flagged for a closer look

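Some libraries lay far from the rest of their group. This was tested in 50 combinations of gene and group with 4 to 10 libraries and found in 5, where chance alone flags about 1 in 20. The combinations share libraries and genes that vary together, so they are not independent, and the 5 cannot be read as an excess over chance. Type 1 replicate 4 at day 7 had the lowest Cspg4 (5.64 log2 CPM) and the lowest Des (10.38) of its group. Type 2 replicate 4 at day 28 had the lowest Rgs5 (7.67), Abcc9 (5.11) and Des (9.79) of its group. These are among the libraries with unusual marker levels for other cells. The part of those cells in the low values was not tested.

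For 4 pairs of effects, the diabetic change differed between days in the fit of all 6 groups with edgeR's quasi-likelihood test. The type 1 effect at day 28 exceeded that at day 7 by 0.98 in Notch3 (adjusted p = 0.000104), 0.58 in Myh11 (adjusted p = 0.0497) and 0.53 in Mylk (adjusted p = 0.0154) on the log2 scale. The type 2 effect did so by 0.67 in Notch3 (adjusted p = 0.0327). Day and sequencing project cannot be told apart, although each effect is a difference within 1 project.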

How the results depend on the processing

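The number of mural genes called at day 7 was 5 for type 1 and 2 for type 2 against non-diabetic tissue and 2 for type 1 against type 2; at day 28 it was 0, 1 and 0; the type 1 and type 2 effects differed between days in 3 and 1. With 1 library left out the ranges were 4 to 6, 2 to 3, 0 to 3, 0 to 2, 0 to 1, 0 to 0, 2 to 5 and 0 to 1 in that order. Calls over all genes are not given for those fits, so the ranges describe the members alone. With the leukocyte mean the member counts were 0, 0, 2, 1, 1, 2, 5 and 1, with the cardiomyocyte mean 5, 2, 3, 0, 2, 0, 6 and 1, and with the endothelial mean 5, 3, 2, 0, 0, 0, 2 and 0. Over all genes the leukocyte fit called 197, 13, 1129, 1316, 1445, 1310, 3415 and 555. The cardiomyocyte fit called 3388, 1953, 573, 1452, 2006, 1205, 3685 and 564. The endothelial fit called 4521, 2325, 1093, 372, 1124, 601, 2450 and 236. Genes tested in these fits were 18165 at day 7, 18901 at day 28 and 20421 across days. Summed libraries gave member counts of 4, 0, 0, 0, 0, 0, 1 and 0, DESeq2 5, 3, 2, 1, 1, 0, 4 and 1, limma-voom 5, 3, 3, 3, 1, 0, 4 and 0, no filter 4, 2, 2, 0, 0, 0, 2 and 0, only the groups compared 4, 3, 2, 1, 0 and 0, and RLE scaling the same as the main counts. Over all genes summed libraries called 1459, 176, 0, 6, 427, 125, 423 and 0. DESeq2 called 4691, 1908, 1058, 1219, 2462, 1039, 2994 and 638. Limma-voom called 5901, 1941, 2927, 3025, 2234, 846, 3907 and 429. Without the filter 3201, 823, 289, 440, 1531, 403, 2119 and 158 were called, of 36719, 37799 and 39909 tested. With only the groups compared it was 2948, 1318, 983, 1116, 1526 and 513. Over all genes the calls ranged by setting from 197 to 5901 (main 4087), 13 to 2325 (1336), 0 to 2927 (492), 6 to 3025 (759), 427 to 2462 (2024), 125 to 1310 (607), 423 to 3907 (2548) and 0 to 638 (308). The cause of these differences was not tested.

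The replicate numbers do not pair the samples: same-numbered libraries had correlations of −0.37 to 0.37 at day 7 and −0.42 to 0.34 at day 28. With the replicate block the counts were 5, 2, 1, 0, 0, 0, 2 and 0. Over all genes the block fit called 4136, 1423, 373, 333, 1379, 375, 2214 and 191.

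Of 80 member changes 29 were no larger than 1 SE, and 25 of those changed sign under some setting. Among the larger ones there were 12 reversals, counted per change and setting, none of them of a called change. Abcc9 in type 1 against non-diabetic tissue at day 7 reversed under both means below. With the cardiomyocyte mean these were Abcc9 at 0.10 in type 1 against non-diabetic and 0.10 against type 2 tissue at day 7, and Rgs5 at 0.00 in type 1 at day 28 and −0.04 in the type 1 effect. With the leukocyte mean they were Rgs5 at 0.18 and Abcc9 at 0.30 in type 1 at day 7, Rgs5 at 0.53, Kcnj8 at 0.03 and Des at 0.22 in type 2 at day 7, and Rgs5 at 0.02, Mylk at −0.01 and Des at 0.01 in type 2 at day 28.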
